A study of Mus musculus with 79 samples.

Results

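The transcripts of 8 adrenergic receptor genes were followed across bone and fat of mice given leptin or vehicle into the brain. They were the beta receptor genes *Adrb1* and *Adrb3*, the alpha2 receptor genes *Adra2a*, *Adra2b* and *Adra2c*, and the alpha1 receptor genes *Adra1a*, *Adra1b* and *Adra1d*, and no other receptor of the family was analysed here. They were found by gene symbol and made up 8 of the 74693 features in the deposited tables. All 8 averaged 0.4 or more over all libraries in TPM, a transcript level scaled for transcript length and library depth, and so were among the 14873 genes tested.

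The 79 libraries came from 51 mice aged 4–5 months by the labels (the study's text gives an older upper age) on a mixed SJL and C57BL6 background. Caudal vertebrae (CV), which hold the stable constitutive marrow fat, were sequenced from every mouse, lumbar vertebrae (LV), the no-fat control, from 18 females and inguinal white adipose tissue (iWAT) from 10 females. Wild-type (WT) mice were BMAd-*Pnpla2*+/+ and knockout (cKO) mice BMAd-*Pnpla2*-/-, in which the triglyceride lipase ATGL is deleted in bone marrow adipocytes, and the promoter that drives the deletion is not given in the sources used here. Single-housed, pair-fed mice received intracerebroventricular (ICV) PBS or leptin at 100 ng per h from an osmotic pump for 9 days. In CV without insulin, PBS and leptin groups held 5 and 5 female WT, 4 and 4 female cKO, 5 and 8 male WT, and 5 and 4 male cKO mice. A subcutaneous insulin pellet was given to further WT males, 5 with PBS and 6 with leptin. The LV came from 5 WT and 4 cKO females per treatment, and the iWAT from 5 WT females per treatment, all of which also gave CV.

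Adrenergic receptors are the G protein-coupled receptors for noradrenaline and adrenaline. Beta receptors act through the stimulatory G protein Gs to raise cyclic AMP (cAMP), which activates protein kinase A (PKA) and, in adipocytes, lipolysis, alpha2 receptors act through Gi to lower cAMP, and alpha1 receptors act through Gq and phospholipase C to raise calcium. In rodent white fat the beta3 receptor, the product of *Adrb3*, is the receptor best known for driving lipolysis, and alpha2 receptors on the same cell restrain it.

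The family's paralogs are close enough in sequence that reads could in principle be shared between them. The longest run common to the transcripts of 2 of these genes was 30 bases in *Adrb1* and *Adrb3*, followed by 26 bases in *Adra2a* and *Adra2c*, both in the coding sequence and both far shorter than the 100-base reads. They are shown with 15 bases on either side, 5′ to 3′ on the transcript's strand of GRCm38, with the common run in capitals. The first pair lies at chr19:56723329-56723388 (plus strand) and chr8:27227475-27227534 (minus strand), and the second at chr19:54046662-54046717 and chr5:35280342-35280397 (both plus strand).
Adrb1: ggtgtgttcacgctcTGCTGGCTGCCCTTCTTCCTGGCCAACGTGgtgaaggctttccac
Adrb3: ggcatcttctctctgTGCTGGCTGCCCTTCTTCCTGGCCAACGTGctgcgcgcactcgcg
Adra2a: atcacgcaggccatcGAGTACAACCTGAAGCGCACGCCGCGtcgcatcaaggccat
Adra2c: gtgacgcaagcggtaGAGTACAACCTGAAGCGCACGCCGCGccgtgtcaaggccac

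No stretch of 100 bases in 6 of the genes occurred in a transcript of another gene. In *Adrb3*, 13.2% of such stretches did, and 24.9% of its exon bases overlapped *Gm45470* on the opposite strand. In *Adra1d* the shares were 2.72% and 7.74%, the latter with *Gm14285*, also on the opposite strand. Whether the libraries kept strand is not given in the sources used here, so reads of these overlaps cannot be told apart. By RefSeq's GRCm38.p6 annotation the beta genes lie at chr19:56722117-56725150 (*Adrb1*) and chr8:27225776-27230845 (*Adrb3*), the alpha2 genes at chr19:54045259-54048982 (*Adra2a*), chr2:127363179-127367221 (*Adra2b*) and chr5:35278566-35281763 (*Adra2c*), and the alpha1 genes at chr14:66635251-66771240 (*Adra1a*), chr11:43774605-43901250 (*Adra1b*) and chr2:131545357-131562497 (*Adra1d*).

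The authors deposited estimated counts and TPM. The depth per library was 16100377–19364106 counts for CV, 28717516–29757254 for LV and 17638318–19100698 for iWAT, and no library was a copy of another. The targeted gene *Pnpla2*, which cells other than marrow adipocytes also express, stood at 251 ± 30.02 TPM in CV of female WT mice with PBS (SD, n = 5) and 179 ± 58.4 TPM in female cKO CV (SD, n = 4). Defining adipocyte markers were present in CV and iWAT and low in LV, where *Adipoq*, which encodes adiponectin, stood at 0.820 to 1.98 TPM in WT mice with PBS against 60.4 to 97.3 TPM in CV and 242 to 983 TPM in iWAT. CV also carried skeletal muscle transcripts, with the summed TPM of 8 muscle markers at 24218 to 51643 in female WT CV with PBS. In such bulk tissue, fewer cells of a type and less receptor RNA per cell cannot be told apart.

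The receptors were rare transcripts in bone, and 1 of them dominated iWAT. In iWAT of WT females with PBS, *Adrb3* was at 237.41, 181.72, 305.67, 341.54 and 254.41 TPM, a mean of 264 ± 61.9 TPM (SD, n = 5). In CV of the same mice it was at 0.18, 0.38, 0.42, 0.32 and 0.33 TPM, a mean of 0.326 ± 0.0910 TPM, and in LV at 0.16, 0.46, 0.28, 0.39 and 0.82 TPM, a mean of 0.422 ± 0.250 TPM. Every iWAT library was thus far above every bone library, whereas CV and LV overlapped in TPM. *Adrb3* supplied most of the receptor RNA of iWAT, and *Adra1b* was the highest member in CV.

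**Figure D1:**
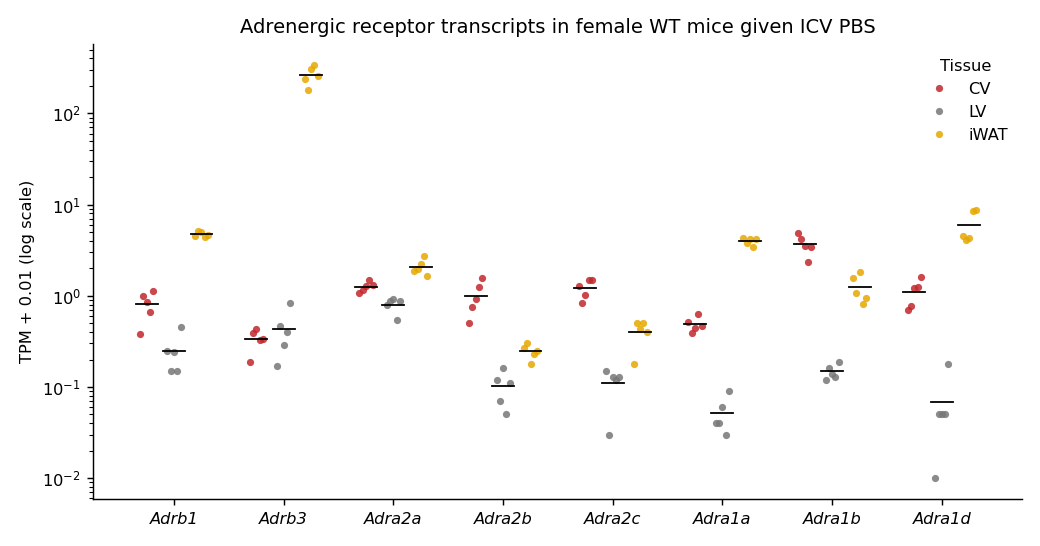
TPM of the 8 adrenergic receptor genes in CV, LV and iWAT of female WT mice with ICV PBS, with 0.01 added, on a log10 axis. Points are libraries (n = 5 per tissue) and bars the mean. *Adrb3* is the highest member in iWAT, at 181.72 to 341.54 TPM, and among the low members of CV, where *Adra1b* leads.

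In CV of WT females with PBS, *Adra1b* came first at 4.89, 4.13, 3.46, 2.36 and 3.38 TPM, with a mean of 3.64 ± 0.941 TPM (SD, n = 5). Its lowest library was above the highest of *Adra2a*, the next member, at 1.25 ± 0.153 TPM. *Adra2c* (1.21 ± 0.291 TPM), *Adra1d* (1.10 ± 0.370 TPM), *Adra2b* (0.990 ± 0.422 TPM), *Adrb1* (0.794 ± 0.290 TPM), *Adra1a* (0.478 ± 0.0907 TPM) and *Adrb3* followed, and each neighbour in this order overlapped the next. Alpha1 receptors made up 53.5%, alpha2 receptors 35.1% and beta receptors 11.4% of the summed TPM of the 8 genes. In CV of WT males with PBS, *Adra1b* was again first at 2.38 ± 0.207 TPM and *Adra1a* last at 0.256 ± 0.0850 TPM (SD, n = 5).

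In LV the order was different. *Adra2a* was first at 0.792 ± 0.154 TPM, *Adrb3* second, and the other 6 were between 0.042 and 0.240 TPM on average, with all neighbours overlapping. Alpha2 receptors made up 53.8%, beta receptors 33.9% and alpha1 receptors 12.2% of the sum. *Adra1d*, the gene of the third alpha1 subtype, was at 0 counts in 2 of the 18 LV libraries.

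In iWAT, *Adrb3* was followed by *Adra1d* (5.98 ± 2.33 TPM), *Adrb1* (4.71 ± 0.338 TPM), *Adra1a* (3.97 ± 0.374 TPM), *Adra2a* (2.08 ± 0.433 TPM), *Adra1b* (1.23 ± 0.432 TPM), *Adra2c* (0.392 ± 0.132 TPM) and *Adra2b* (0.236 ± 0.0451 TPM). Beta receptors made up 95.0% of the sum, alpha1 receptors 4.04% and alpha2 receptors 0.984%. *Adra1d* split into libraries at 4.12 to 4.48 TPM, from the 3 mice numbered in the 100s, and at 8.39 and 8.66 TPM, from the 2 mice numbered in the 600s.

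Tissues were compared on counts by the quasi-likelihood test of edgeR, p-values were adjusted over all tested genes by the Benjamini-Hochberg method, and a call needed an adjusted p under 0.05 and a log2 fold change of 0.5 or more in either direction. The tissues were of the same 5 mice, and this test took their libraries as independent. Between iWAT and CV all 8 receptors were called, where 50.5% of all tested genes were. Higher in iWAT were *Adrb3*, by 9.78 ± 0.26 on the log2 scale (SE; edgeR adjusted p = 2.6e-10), *Adra1a* (3.25 ± 0.14), *Adrb1* (2.73 ± 0.23), *Adra1d* (2.61 ± 0.30) and *Adra2a* (0.90 ± 0.18). Lower in iWAT were *Adra2b* (-1.87 ± 0.30), *Adra2c* (-1.45 ± 0.29) and *Adra1b* (-1.41 ± 0.26). Both beta receptors followed here were therefore higher in iWAT, while the alpha1 and alpha2 classes each had members on both sides.

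Between CV and LV, 6 receptors were called, where 66.6% of all tested genes were. Higher in CV were *Adra1b* by 3.59 ± 0.23 (edgeR adjusted p = 1.2e-08), *Adra1d* (3.12 ± 0.53), *Adra1a* (2.50 ± 0.32), *Adra2c* (2.43 ± 0.33) and *Adra2b* (2.34 ± 0.36). *Adrb3* was lower in CV by a log2 fold change of -1.49 ± 0.43 (edgeR adjusted p = 0.0066). *Adra2a* was at -0.44 ± 0.15, short of the fold threshold, and *Adrb1* at 0.62 ± 0.35 (edgeR adjusted p = 0.12). The 2 receptors with a negative fold change, *Adrb3* and *Adra2a*, depended on the scale. With limma on log2(TPM + 0.1), on which the median of all genes moved by 1.08 towards CV, *Adrb3* was at -0.20 (adjusted p = 0.55) and *Adra2a* turned to 0.61.

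Against LV, 6 receptors were higher in iWAT and none lower, where 66.5% of all tested genes were called in either direction. *Adrb3* was higher by 8.31 ± 0.38, *Adra1a* by 5.76 ± 0.27, *Adra1d* by 5.74 ± 0.54, *Adrb1* by 3.36 ± 0.27, *Adra1b* by 2.20 ± 0.26 and *Adra2c* by 0.99 ± 0.42 on the log2 scale. The call of *Adra2c* (edgeR adjusted p = 0.046) was lost with the mouse as a block (0.091) and without any 1 of 9 of the 10 libraries. *Adra2a* (0.48 ± 0.18) and *Adra2b* (0.48 ± 0.34) did not pass.

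Set beside an adipocyte transcript, *Adrb3* differed between the depots as well. The median ratio was 492 *Adrb3* TPM per 1000 *Adipoq* TPM in iWAT of WT females with PBS, against 4.32 in their CV. In LV it was 258, with both transcripts near the limit of detection. These ratios are a description with no test. The ratio of *Adrb3* to *Adra2a*, the stimulatory against the inhibitory receptor, stood at 6.91 ± 0.28 on the log2 scale in iWAT and -1.69 ± 0.30 in CV (SD, n = 5).

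The question of the leptin comparisons was whether the receptor transcripts changed in stable marrow fat and in iWAT when fat was being depleted. *Adrb3* carried few counts in CV, 0 to 34 per library over the 51 libraries with a median of 9, and 6 libraries held 3 counts or fewer, so only large changes could be seen at this depth. Female WT mice with leptin had *Adrb3* at 1.19, 0.68, 0.40, 0.31 and 0.32 TPM in CV. Of these, 2 were above all PBS libraries and 3 lay within their range. The log2 fold change was 0.79 ± 0.42 (edgeR adjusted p = 0.26).

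The other CV groups showed no call of *Adrb3* either. Male WT means were 0.354 ± 0.176 TPM with PBS (SD, n = 5) and 0.309 ± 0.187 TPM with leptin (SD, n = 8). Female cKO libraries with PBS were at 0.21, 0.38, 0 and 0.58 TPM and those with leptin at 0.32, 0.33, 0.40 and 0.68 TPM. Male cKO means were 0.272 ± 0.187 TPM (SD, n = 5) and 0.298 ± 0.0655 TPM (SD, n = 4). Over all 40 CV libraries without insulin the log2 fold change was 0.30 ± 0.26 (edgeR adjusted p = 0.43).

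**Figure D2:**
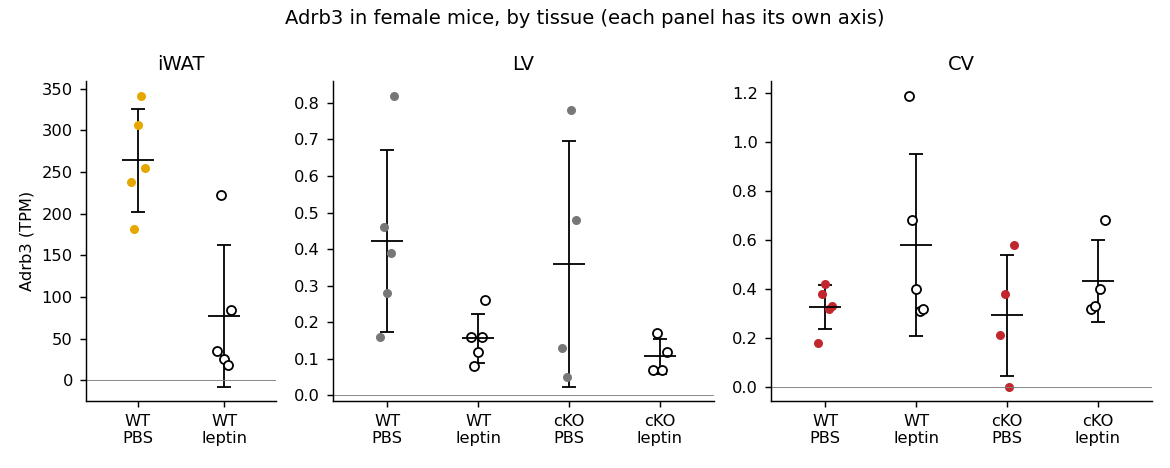
*Adrb3* TPM in every library of female mice by group, with a panel and its own linear axis for each tissue. Filled points are PBS, open points leptin and bars the mean ± SD. iWAT libraries lie between 18.68 and 341.54 TPM and all bone libraries at or below 1.19 TPM; 4 of 5 iWAT libraries with leptin lie below all 5 with PBS.

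In iWAT, *Adrb3* was lower with leptin in 4 of 5 libraries. Libraries with leptin stood at 34.82, 222.48, 25.91, 18.68 and 84.82 TPM, a mean of 77.3 ± 85.2 TPM (SD, n = 5), so that all but replicate 2 were below every PBS library. The log2 fold change was -1.69 ± 0.60, with an unadjusted p = 0.017 and an adjusted p = 0.059 in edgeR's test, short of the threshold. Without leptin replicate 2 it was -2.58 (edgeR adjusted p = 0.0024).

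Leptin replicate 2 also differed from the rest of its group in some adipocyte transcripts but not in others. Its *Lep*, the gene of leptin itself, was at 6.00 TPM against 0.160 to 0.450 TPM in the other 4 libraries with leptin and 190 to 365 TPM with PBS. Its *Lipe*, which encodes hormone-sensitive lipase, was the highest of the leptin group at 825 TPM. Its *Adipoq* was at 377 TPM, the median of the leptin group, which ran from 257 to 546 TPM. The ranges by mouse number were 181.72 to 305.67 TPM with PBS and 34.82 to 222.48 TPM with leptin in the 100s, and 254 to 342 TPM and 18.7 to 84.8 TPM in the 600s. The groups were thus apart in the 600s and overlapped in the 100s through replicate 2.

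No receptor was called for leptin in iWAT by edgeR, where 15.1% of all tested genes were, and 2 of 8 had an unadjusted p below 0.05. DESeq2 and limma on TPM each called 1, *Adrb3* (adjusted p = 0.027, and 0.016 to 0.017 with limma). *Adrb1*, the other beta receptor followed here, was at 4.46, 5.11, 5.02, 4.35 and 4.62 TPM with PBS and 3.49, 3.69, 4.51, 3.34 and 2.86 TPM with leptin. Its groups overlapped in 1 leptin library, with a log2 fold change of -0.31 ± 0.14 (edgeR adjusted p = 0.12). The mean share of beta receptors in the summed TPM was 95.0% with PBS and 79.5% with leptin, and the means of alpha1 receptors were 4.04% and 15.3%. The alpha1 share with leptin ran from 4.63% to 25.4%. The alpha1 sum itself was not higher with leptin, at 11.2 ± 1.94 TPM with PBS and 9.08 ± 2.12 TPM with leptin (SD, n = 5). The 3 alpha2 genes had log2 fold changes of -0.01 to 0.42 and none passed.

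Summed adipocyte markers moved with *Adrb3* in iWAT. The 7 markers summed to 45156 to 61220 TPM with PBS and 16164 to 38583 TPM with leptin, none of them at 0, and 3 of the 7 fell (*Fabp4*, *Plin1* and *Lipe*, with log2 fold changes of -1.11, -0.95 and -0.74). Their part in the *Adrb3* values was not tested beyond the ratio to *Adipoq*. That ratio was -1.04 ± 0.61 on the log2 scale with PBS and -2.97 ± 1.49 with leptin (SD, n = 5), a difference of -1.93 (two-sided exact permutation test, p = 0.032, adjusted p = 0.064 over 8 comparisons).

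In CV the same ratio was higher on average with leptin. In female WT CV it was -7.63 ± 0.41 with PBS and -6.18 ± 1.11 with leptin on the log2 scale (SD, n = 5), a difference of 1.45 with no overlap (two-sided exact permutation test, p = 0.0079, the smallest that 5 against 5 libraries can give, adjusted p = 0.064). Differences were 2.26 in female cKO, 1.13 in male cKO and 0.62 in male WT mice (adjusted p = 0.076, 0.064 and 0.26 from the same exact test). The female cKO difference was 1.45 without PBS replicate 3, the library at 0 counts, and 3.06 with 0.01 in place of 0.1 added to both terms. The male WT difference was 0.39 without leptin replicate 6, 0.31 without PBS replicate 3 and 0.95 without PBS replicate 4. In male WT CV the ratio differed by -1.33 for insulin with PBS and by -0.53 for insulin with leptin. Leptin within insulin mice gave 1.41 (adjusted p = 0.0635, 0.28 and 0.0635 from the same exact test). None of the 8 comparisons passed the adjustment. *Adipoq* itself stood at 83.5 ± 14.7 TPM with PBS and 46.3 ± 15.4 TPM with leptin in female WT CV.

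**Figure D3:**
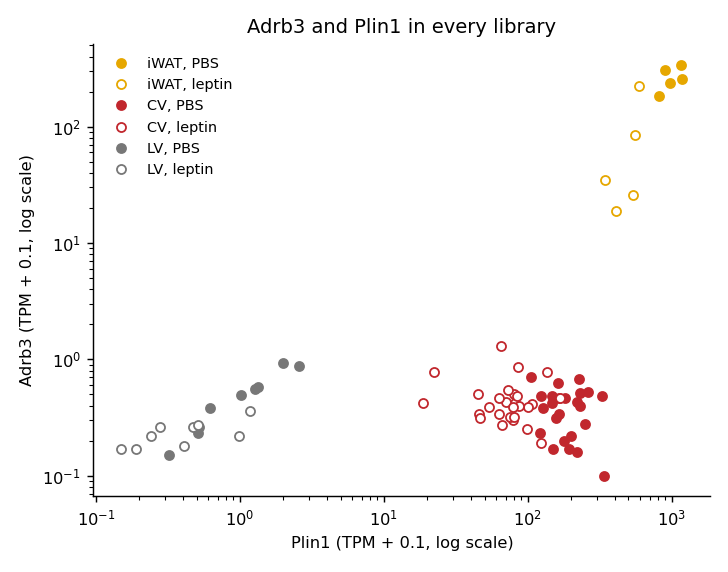
*Adrb3* TPM against the TPM of *Plin1*, the adipocyte lipid droplet gene, in every library, each with 0.1 added. Axes are log10, with colours for the tissues and open symbols for leptin. CV libraries hold much *Plin1* and little *Adrb3*, whereas LV libraries are low in both and iWAT libraries high in both.

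In LV, the tissue meant to lack fat, *Adrb3* fell with leptin when both genotypes were pooled. WT libraries with leptin were at 0.16, 0.08, 0.12, 0.16 and 0.26 TPM. cKO libraries were at 0.13, 0.05, 0.78 and 0.48 TPM with PBS and 0.07, 0.17, 0.07 and 0.12 TPM with leptin. Both pairs of groups overlapped, and the highest values were all with PBS. Over the 18 LV libraries with genotype in the fit, the log2 fold change was -1.65 ± 0.41 (edgeR adjusted p = 0.030).

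*Adra2a*, the alpha2A receptor, was the other gene to fall in LV. WT libraries were at 0.78, 0.87, 0.91, 0.53 and 0.87 TPM with PBS and 0.56, 0.54, 0.49, 0.39 and 0.75 TPM with leptin. cKO libraries were at 0.82, 0.59, 0.55 and 0.58 TPM with PBS and 0.50, 0.62, 0.43 and 0.37 TPM with leptin. The groups overlapped in both genotypes, and the pooled log2 fold change was -0.55 ± 0.14 (edgeR adjusted p = 0.031).

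These were 2 of 8 receptors called in pooled LV, where 1.11% of all tested genes were. The calls were weak. That of *Adrb3* was lost without any 1 of 7 of the 18 libraries and that of *Adra2a* without any 1 of 9. DESeq2 called 1 receptor and limma on TPM none. In LV of each genotype alone no receptor was called, where 0% of tested genes were in either, and 2 of 8 had an unadjusted p below 0.05 in each. DESeq2 called none there. In the cKO mice numbered in the 100s *Adrb3* was at 0.05 and 0.13 TPM with PBS and 0.07 to 0.17 TPM with leptin, and in the WT mice of the 100s at 0.16 to 0.46 and 0.08 to 0.16 TPM.

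LV *Adrb3* ran with traces of several adipocyte transcripts, some of them weakly. Over the 18 LV libraries Pearson's r of *Adrb3* was 0.88 with *Plin1*, 0.88 with *Retn*, 0.81 with *Lep*, 0.80 with *Fabp4* and 0.72 with *Adipoq*. It was 0.65 with *Cidec*, 0.41 with *Lipe* and 0.13 with *Pparg*. *Lep* was at 0 counts in every LV library with leptin, so its r largely repeats the treatment. These describe libraries that share treatment and low counts, and carry no test. *Retn*, which encodes the adipocyte hormone resistin, was the 1 of 7 adipocyte markers called in pooled LV, at a log2 fold change of -1.68. For *Adra2a* the r with the same 7 markers ran from -0.01 (*Cidec*) to 0.44 (*Retn*), with *Plin1* at 0.41 and *Adipoq* at 0.20. With *Lep* it was 0.62. The part of remaining adipocytes in the LV values was not tested.

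The receptor that fell with leptin in CV was *Adra1a*, which encodes the alpha1A receptor. Its counts were low, 8 to 63 per library over the 51 CV libraries with a median of 23. In counts scaled to the library's total (CPM), female WT CV stood at 2.66, 1.79, 1.98, 2.79 and 2.67 with PBS and 1.23, 0.73, 1.74, 0.64 and 1.24 with leptin. Every leptin library was below every PBS library. The log2 fold change was -1.09 ± 0.27 (edgeR adjusted p = 0.033), and this was the only one of the 8 receptors called in female WT CV, where 5.04% of all tested genes were.

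**Figure D4:**
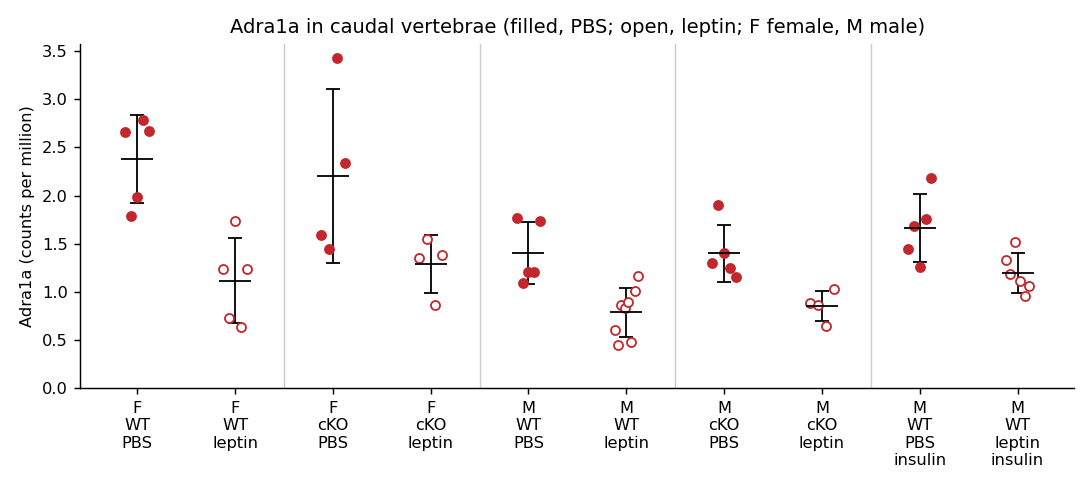
*Adra1a* CPM in every CV library by sex, genotype and insulin, with filled points for PBS, open points for leptin and bars for the mean ± SD. Means are lower with leptin in each of the 5 pairs of groups, without overlap in CPM in female WT and male cKO mice.

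The other CV groups had lower means of *Adra1a* with leptin without passing the test in any one of them. In male WT mice the means were 1.40 ± 0.325 CPM with PBS (SD, n = 5) and 0.788 ± 0.255 CPM with leptin (SD, n = 8), a log2 fold change of -0.84 ± 0.25 (edgeR adjusted p = 0.084). In female cKO mice they were 2.20 ± 0.904 and 1.29 ± 0.298 CPM (SD, n = 4 each), a change of -0.75 ± 0.32 (edgeR adjusted p = 0.42). In male cKO mice PBS libraries ranged from 1.15 to 1.90 CPM and leptin libraries from 0.651 to 1.03 CPM, with no overlap and a change of -0.70 ± 0.23 (edgeR adjusted p = 0.33). In TPM these libraries overlapped, at 0.20 to 0.47 with PBS and 0.12 to 0.22 with leptin.

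Over the 40 CV libraries without insulin, with sex and genotype in the fit, *Adra1a* fell by 0.86 on the log2 scale (SE 0.13, edgeR adjusted p = 5.7e-06), and it was called without each of the 40 libraries in turn. It was the only 1 of 8 receptors called, where 5.37% of all tested genes were. *Adra2a* came next at -0.27 ± 0.11 (edgeR adjusted p = 0.063).

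In WT mice the pattern of *Adra1a* was present in both series of mouse numbers, the 100s and the 600s. In female WT CV of the 100s PBS libraries were at 1.79 to 2.66 CPM and leptin libraries at 0.734 to 1.23 CPM, and in the 600s at 2.67 to 2.79 and 0.642 to 1.74 CPM. In male WT CV of the 100s they were at 1.09 to 1.77 and 0.450 to 0.892 CPM, and in the 600s at 1.20 to 1.74 and 0.482 to 1.17 CPM. In CPM the groups did not overlap within any of these 4 sets. In TPM they overlapped in the female 600s, at 0.46 to 0.62 with PBS and 0.19 to 0.48 with leptin. They also overlapped in TPM in the male 100s, at 0.13 to 0.30 and 0.08 to 0.21. Among cKO mice only the females of the 100s had more than 1 mouse in both treatments. They were at 1.45 to 1.59 CPM with PBS and 0.861 to 1.55 CPM with leptin, which overlapped. Male cKO mice with PBS were 2 of the 100s and 3 of the 5400s. Those with leptin were 1 of the 100s, 1 of the 5400s and 2 of the 600s. Treatment and series were thus not balanced in that group, and the 5400s held cKO mice only.

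The female WT call of *Adra1a* was lost without any 1 of 6 of the 10 libraries (PBS replicates 1, 2, 4 and 5 and leptin replicates 4 and 5), with edgeR adjusted p of 0.054 to 0.089. TPM, which also depends on the transcript lengths the pipeline assigned, overlapped between the groups (0.38 to 0.62 TPM with PBS, 0.17 to 0.48 TPM with leptin), and limma on TPM gave no call. In the same libraries 3 of 7 adipocyte markers fell and 3 of 6 osteoblast markers rose with leptin, and no muscle marker was called by edgeR. The summed adipocyte markers of female WT CV were 6496 to 8673 TPM with PBS and 3813 to 6991 TPM with leptin, muscle markers 24218 to 51643 and 19283 to 44424 TPM, and osteoblast markers 2367 to 6415 and 5311 to 16074 TPM. Over the 51 CV libraries, Pearson's r of *Adra1a* with the mean of each list was 0.55 for osteoblast, 0.48 for adipocyte, 0.47 for neuron and glia, 0.35 for smooth muscle and -0.21 for skeletal muscle markers, and their part in the result was not tested.

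In iWAT *Adra1a* did not follow this direction. Its mean was 20.4 ± 2.53 CPM with PBS and 25.4 ± 8.68 CPM with leptin (SD, n = 5), with a log2 fold change of 0.23 ± 0.21 (edgeR adjusted p = 0.45) that turned to -0.086 with limma on log2(TPM + 0.1) and to -0.041 without leptin replicate 3. The difference between the leptin effects in iWAT and CV was 1.28 ± 0.36 (edgeR adjusted p = 0.020), again the only 1 of 8 receptors called, where 11.3% of all tested genes were. DESeq2 called it too, and limma on TPM did not. The edgeR fit took CV and iWAT libraries of a mouse as independent, and with the mouse as a block 2 receptors were called. The same difference for *Adrb3* was -2.51 ± 0.96 (edgeR adjusted p = 0.086), and it was called by DESeq2, by limma on TPM, with the mouse as a block, which joins CV and iWAT of an animal (-2.89, edgeR adjusted p = 0.015), and without iWAT leptin replicate 2 (-3.41, edgeR adjusted p = 0.0025).

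**Figure D5:**
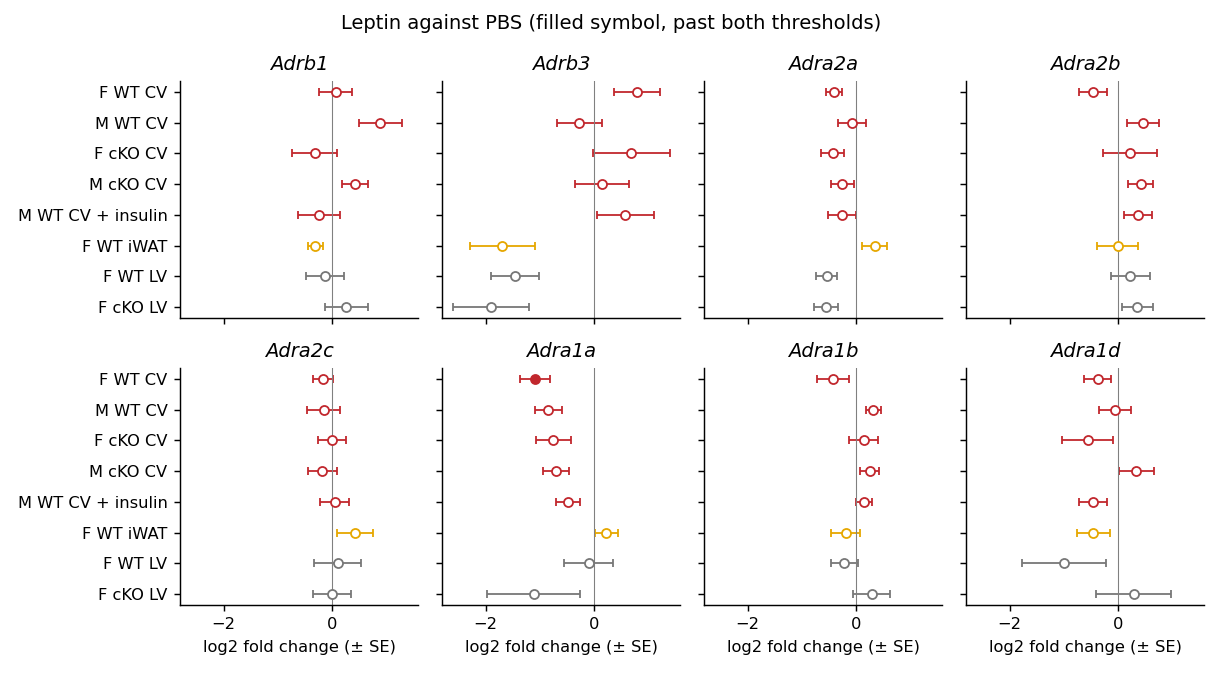
Log2 fold change with leptin of each receptor within each sex, genotype and tissue, from edgeR, with bars for the SE and filled points for called values. *Adra1a* lies below 0 in each CV group and *Adrb3* below 0 in iWAT and in both LV groups, at -1.69, -1.45 and -1.90.

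The remaining receptors were not called for leptin in any group. In male WT CV none of the 8 was called by edgeR, where 1.75% of all tested genes were, 3 had an unadjusted p below 0.05, DESeq2 and limma called none, and 1 fit of all CV groups called 1. *Adrb1* in male WT CV was at 0.23, 0.24, 0.92, 0.34 and 0.58 TPM with PBS and between 0.32 and 1.38 TPM with leptin (median 0.805), a log2 fold change of 0.89 ± 0.40 (edgeR adjusted p = 0.24). Leptin libraries of the 600s were at 1.22 to 1.38 TPM and those of the 100s at 0.32 to 0.83 TPM, without overlap. *Adra2c*, the alpha2C receptor, was divided the same way in that group, at 1.11 to 1.42 and 0.47 to 0.88 TPM. *Adra1b*, the alpha1B receptor, was at 2.22 to 2.70 TPM with PBS and 2.27 to 4.16 TPM with leptin in male WT CV (0.32 ± 0.14, edgeR adjusted p = 0.24), and at 2.36 to 4.89 and 1.61 to 5.36 TPM in female WT CV (-0.42 ± 0.29, edgeR adjusted p = 0.40).

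In female cKO CV no receptor was called by edgeR or DESeq2, where 0.0269% of all tested genes were, and in male cKO CV none was, where 0.188% were. In both, 1 of 8 had an unadjusted p below 0.05. Leptin effects on the receptors were not called different between the sexes, where 0% of tested genes were (edgeR, 2 of 8 with an unadjusted p below 0.05), or between the genotypes in females or males, where 0% were in each (edgeR, none of 8 with an unadjusted p below 0.05). For *Adra1a* the effect in females differed from that in males by -0.22 ± 0.37, and the effect in cKO differed from that in WT by 0.32 ± 0.43 in females and 0.14 ± 0.35 in males.

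Loss of ATGL in marrow adipocytes gave no call among the receptors. Between cKO and WT mice with PBS, log2 fold changes ran from -0.36 (*Adra2b*) to 0.14 (*Adra2a*) in female CV, from -0.35 (*Adrb3*) to 0.33 (*Adrb1*) in male CV and from -0.23 (*Adrb1*) to 0.59 (*Adra2b*) in LV. No receptor had an unadjusted p below 0.05 in any of the 3, by edgeR, DESeq2 called none, and 0% of tested genes were called in each. For *Adrb3* the SE was 0.62, 0.52 and 0.64, so a change of about 1 on the log2 scale would not have been detectable.

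Between the sexes, *Adra1a* was lower in CV of WT males than of females with PBS, at 1.40 ± 0.325 against 2.38 ± 0.457 CPM (SD, n = 5), a log2 fold change of -0.69 ± 0.21 (edgeR adjusted p = 0.029). It was the only receptor called, where 7.96% of all tested genes were, and the call was lost without any 1 of 6 of the 10 libraries (female replicates 1, 4 and 5, male replicates 2, 3 and 4). *Adra2b*, the alpha2B receptor, was at 0.49 to 1.56 TPM in females and 0.40 to 0.64 TPM in males (-0.68 ± 0.27, edgeR adjusted p = 0.085). *Adra1d* was at 0.69 to 1.58 and 0.48 to 0.73 TPM (-0.59 ± 0.25, edgeR adjusted p = 0.10). With limma on log2(TPM + 0.1), on which the median of all genes moved by -0.23, 4 receptors were called. All 6 osteoblast markers were also lower in males in this comparison, with a median log2 fold change of -1.03, 4 of 8 muscle markers were higher and 1 of 7 adipocyte markers, *Adipoq*, was lower (-0.66, edgeR adjusted p = 0.020), and their part in the result was not tested.

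Insulin pellets gave no call among the receptors in male WT CV. All insulin mice carry numbers in the 300s to 400s and no other mouse does, so insulin and that series cannot be told apart. With PBS, insulin mice had *Adrb3* at 0.24, 0.07, 0.10, 0.41 and 0.07 TPM against 0.38, 0.36, 0.12, 0.61 and 0.30 TPM without insulin. The ranges overlapped, and the log2 fold change was -1.13 ± 0.52 (edgeR adjusted p = 0.75). No receptor was called there, where 0% of all tested genes were, with 1 of 8 at an unadjusted p below 0.05 and none by DESeq2.

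With leptin, *Adra1a* was at 0.788 ± 0.255 CPM without insulin (SD, n = 8) and 1.20 ± 0.204 CPM with insulin (SD, n = 6), a log2 fold change of 0.57 ± 0.21 (edgeR adjusted p = 0.17). *Adrb1* was at 0.32 to 1.38 TPM and 0.25 to 0.75 TPM (-0.84 ± 0.34, edgeR adjusted p = 0.22). None of the 8 was called, where 0.363% of all tested genes were, 3 had an unadjusted p below 0.05 and DESeq2 called none. Leptin within insulin mice gave *Adra1a* at -0.48 ± 0.22 (edgeR adjusted p = 0.29), from 1.66 ± 0.350 to 1.20 ± 0.204 CPM, with no receptor called where 0.558% of tested genes were, 1 of 8 at an unadjusted p below 0.05 and none by DESeq2. The leptin effect on *Adra1a* with insulin differed from that without by 0.37 ± 0.31 (edgeR adjusted p = 0.70), no receptor was called for this difference, where 0% of genes were, and 1 of 8 had an unadjusted p below 0.05.

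The steps around the receptors were described with lists of the cAMP pathway and of catecholamine handling. Their counts stand beside 15.1% of all tested genes called in iWAT and 5.04% in female WT CV, and a list of 6 to 11 genes with 1 or 2 called is near that share in iWAT. In iWAT with leptin, 5 of 9 cAMP-responsive transcripts rose and none fell, with a median log2 fold change of 0.92 against 0.07 over all tested genes. These were the nuclear receptors *Nr4a3* (4.33 ± 0.71, edgeR adjusted p = 0.0019) and *Nr4a1* (1.42), *Dio2* (3.76 ± 0.62, edgeR adjusted p = 0.0020), which encodes the deiodinase that makes active thyroid hormone, *Sik1* (0.92), a kinase induced by cAMP, and *Crem* (0.90), a cAMP-responsive transcription factor. *Nr4a3*, *Dio2*, *Nr4a1*, *Crem* and *Ppargc1a* were called for the difference between iWAT and CV. None of the 9 was called by edgeR in female WT CV, and over all CV without insulin *Nr4a3* (1.26) and *Sik1* (0.96) rose.

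Of the cAMP phosphodiesterases, which break cAMP down, 2 of 6 rose in iWAT, *Pde4d* by 2.50 ± 0.33 (edgeR adjusted p = 0.00067) and *Pde4b* by 0.53, and in female WT CV 1 of 6 fell, *Pde3b*, the isoform through which insulin acts, by 0.57. Of 9 Gs and adenylyl cyclase genes, *Adcy3* rose (1.20 ± 0.16, edgeR adjusted p = 0.00065) and *Adcy5* (-0.59) and *Adcy6* (-0.53) fell in iWAT. *Adcy3* (0.83) and *Adcy5* (-0.57) were called in female WT CV as well. Of 6 PKA subunits only the catalytic subunit *Prkaca* was called in iWAT (-1.10 ± 0.23, edgeR adjusted p = 0.0065), and none in female WT CV.

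Of 11 Gi, Gq and phospholipase C genes, *Gnai1*, the Gi alpha subunit, fell in iWAT (-1.76 ± 0.17, edgeR adjusted p = 0.00011) together with *Plcb4* (-0.55), and none was called in female WT CV. Of 6 receptor kinase and arrestin genes, whose products switch receptors off, *Grk5* fell (-1.07 ± 0.11, edgeR adjusted p = 0.00012) and *Grk3* (0.58) and *Arrb2* (0.52) rose in iWAT, and *Grk3* rose by 0.61 in female WT CV. Among catecholamine transporter genes, the extraneuronal transporters *Slc22a2* (-2.87 ± 0.61) and *Slc22a3* (-2.07 ± 0.26) fell in iWAT and the vesicular transporter *Slc18a2* rose (0.91). In female WT CV *Slc18a1*, the other vesicular transporter, was called (1.54). In male WT CV and cKO CV none of these pathway genes was called. Without iWAT leptin replicate 2 the cAMP-responsive count was again 5 up and none down.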

How the data were processed

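RNA enriched by oligo dT was read as 100 bp pairs on the DNBSEQ platform by the study, filtered with SOAPnuke and aligned with HISAT and Bowtie2 to GRCm38.p6. GRCm39 also stands in the submitters' processing notes, and the counting tool is not given in the sources used here. The authors deposited estimated counts per gene without normalization between samples (51 values in 6 other genes were not whole and were rounded) and TPM scaled to an equal total per library. Groups, sexes and replicates came from the sample labels.

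The 14873 genes past the study's filter (mean TPM 0.4 or more) were tested on counts with edgeR 4.0.16 (glmQLFit and glmQLFTest, TMM) in R 4.3.3, each pair of groups alone, the 4 male WT insulin groups and the interactions in fits of 4 groups, and the pooled fits with sex and genotype. Calls needed a Benjamini-Hochberg adjusted p under 0.05 and a log2 fold change of 0.5 or more in either direction. SEs come from the F statistic. CPM are counts scaled to the library's total. *Adrb3* per *Adipoq* was log2 of the TPM ratio with 0.1 added to both, tested by exact permutation. All 8 receptors were named, with the called genes of the pathway lists (at most 4 per list of largest change) and the 3 genes of highest correlation with each receptor in CV. The receptors and lists were chosen with earlier results of these data known. In simulated data, 200 of 14873 genes were changed by 1.5 on the log2 scale. The test found 192 in female WT CV, 175 in iWAT with leptin and 191 in CV against LV. In the same order, 5.9%, 3.3% and 2.1% of its calls were unchanged genes. The changed genes were drawn only from genes above a floor on mean counts. These rates therefore do not describe receptors with few counts, such as *Adrb3* in CV.

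Alternatives were RLE size factors, other filters, limma 3.58.1 on log2(TPM + 1) and log2(TPM + 0.1), DESeq2 1.42.0, the replicate number or mouse as a block, a covariate for the mouse number series, 1 fit per tissue and leaving out each library. Same-numbered CV, LV and iWAT libraries of a group are 1 mouse by the labels. Their residuals correlated at r = 0.04 to 0.17 between CV and LV with PBS and -0.01 to 0.25 between CV and iWAT with PBS, and at 0.18 to 0.28 between CV and iWAT with leptin. Each library came from 1 mouse, and intervals and SEs hold for these mice only. Some items of the study are not reported here. Python 3.11.15 with pandas 2.3.3, NumPy 2.4.6 and matplotlib 3.10.9 was used for the rest.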

Additional observations from a re-analysis of the deposited data

Results flagged for a closer look

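Of 128 sets of 4 to 10 libraries of a group and receptor, 6 had 1 library beyond Dixon's 95% value, about the 1 in 20 that chance gives. *Adrb3* stood at 0.75 TPM in replicate 6 of male WT CV with leptin, where the nearest library had 0.36 TPM. *Adrb1* stood at 0.76 TPM in replicate 3 of male cKO CV with PBS, with the nearest at 0.54 TPM. The other 4 were in LV, where *Adra1a* was at 0.06 TPM in replicate 4 of cKO mice with leptin (nearest 0.01), *Adra1d* at 0.17 TPM in replicate 5 of WT mice with PBS (nearest 0.04), *Adra2a* at 0.82 TPM in replicate 1 of cKO mice with PBS (nearest 0.59) and *Adra2c* at 0.02 TPM in replicate 2 of WT mice with PBS (nearest 0.11). Apart from *Adra2a*, these LV values rest on few counts.

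The leptin effect on *Adra1a* differed between iWAT and CV by 1.28 on the log2 scale in edgeR's interaction test (adjusted p = 0.020, and 0.0088 to 0.040 when each of the 20 libraries was left out in turn).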

How the results depend on the processing

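Counts of receptors called moved by over 1.5 times with the tool or the fit in 7 comparisons. In female WT CV limma on TPM gave 0 with either pseudocount, in male WT CV 1 fit of all CV groups gave 1, and in male against female CV limma gave 0 with a pseudocount of 1 and 4 with 0.1. For leptin in iWAT both limma fits, DESeq2 and the replicate block gave 1. For the difference of leptin effects between iWAT and CV, DESeq2 and the block of the same mouse gave 2. Over all CV limma with a pseudocount of 1 gave 0, and over all LV limma gave 0 with either pseudocount and DESeq2 gave 1. Of the counts under other settings 15 moved by over 1.5 times the value reported. A further 234 results were rated the same. They join the counts that stayed within 1.5 times with the tests of *Adrb3* per *Adipoq* under other settings. None of those tests passed the adjustment. Leaving out 1 library gave 0 to 1 receptors in female WT CV, iWAT with leptin and male against female CV, 1 to 2 for the tissue difference and 0 to 2 over all LV. In iWAT the library was leptin replicate 2, without which *Adrb3* was called and its ratio to *Adipoq* differed by -2.48 (exact permutation test, adjusted p = 0.032, range of differences -2.48 to -1.57). *Adra1a* in iWAT reversed to -0.059 and -0.086 with limma (pseudocounts 1 and 0.1) and to -0.041 without leptin replicate 3 (range -0.041 to 0.33), and *Adra2a* in CV against LV to 0.33 and 0.61 with limma. The cause was not tested.

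Leptin and PBS mice of one replicate number are different animals that share only the number, with residuals correlated at r = -0.22 to 0.31 in female WT CV and -0.15 to 0.37 in iWAT, and the replicate block moved no other count by over 1.5 times. Between tissues counts moved by less, from 6 to 7 for CV against LV and from 8 to 7 for iWAT against CV with limma, and from 6 to 8 with limma and to 5 with DESeq2, no filter on low counts or the mouse as a block for iWAT against LV. The series of mouse numbers could not enter the insulin comparisons, nor 1 fit per tissue those of iWAT or between tissues. Leaving out libraries in the pooled and tissue-difference fits, and the pathway counts without iWAT leptin replicate 2, were added after the data were seen. Low counts limit *Adrb3* in bone and every receptor but *Adra2a* in LV. *Adra1a* in CV also rests on few counts.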

Other observations

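Over the 51 CV libraries each receptor was set beside the genes whose log2(TPM + 0.1) ran most alike, as a description, since the libraries share treatment, sex and tissue composition. *Adra1a* was closest to *Fras1* (Pearson's r = 0.82), *Dixdc1* (0.81) and *Stard13* (0.79), and within groups the values were 0.56, 0.59 and 0.52. *Adra1b* was closest to *Fam124a* (0.75), *Clec1a* (0.73) and *Rhoj* (0.72), the last 2 known from endothelial cells. *Adra1d* was closest to *Pik3r1* (0.78), *Timp3* (0.76) and *Rgma* (0.74), and *Adra2b* to *Tgfa* (0.79), *Hs3st3b1* (0.76) and *Pik3r1* (0.75). *Adra1d* and *Adra2b* were also the pair of receptors most alike (0.62).

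*Adra2a* was closest to *Rtl3* (0.73) and *Nqo2* (0.73), *Adra2c* to *Timm29* (0.69), *Fbxl17* (0.67) and *Hey1* (0.67), and *Adrb1* to *Sowahc* (0.63), *Dhrs3* (0.62) and *Tnfaip8l1* (0.59). For *Adrb3* the highest value was 0.66, with *Rpl36*, on counts too sparse to read. Across CV libraries *Adrb3* ran at r = -0.31 with the mean of the adipocyte markers. No such mean was taken in LV. There, over 18 libraries, *Adrb3* ran with single markers at 0.13 (*Pparg*) to 0.88 (*Retn*), with *Adipoq* at 0.72.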
